A study of Mus musculus with 6 samples.

Results

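Genomic imprinting leaves a gene active on the copy inherited from one parent and silent on the other. Imprinted genes lie in clusters that share an imprinting control region, a stretch of DNA methylated on the maternal or the paternal chromosome, and many clusters pair protein-coding genes with a long non-coding RNA (lncRNA) made from the opposite parental copy. In the developing brain the family is known for its dosage-sensitive growth factors, cell cycle inhibitors and regulators of neuronal maturation. The genes described here are 43 imprinted mouse genes taken from a list by name and grouped into 18 clusters. A gene of the given name was found for 42 of the 43 in the annotation (52230 genes in all), and 39 passed the filter on low counts, 0.25 or more counts per 1000000 counts (CPM) in 3 libraries or more, among 16745 tested genes. *Zrsr1* was not matched to a gene and has no value, and *Phlda2*, *Calcr* and *Rtl1* were below the filter, with at most 5 estimated counts in any library.

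Stranded mRNA libraries, selected by their poly(A) tails, were sequenced from hippocampi of mice at postnatal day 0 (P0). The 6 libraries fell into 2 groups of 3, *Mov10* Deletion and WT (C57BL/6), and each library pooled the hippocampi of at least 2 pups. The *Mov10* Deletion animals carried loxP sites around exons 6 and 7 of *Mov10*, an RNA helicase gene, with Cre recombinase expressed from *Emx1*, and also a germline heterozygous mutation of *Mov10*. Cre from *Emx1* acts in excitatory neurons of the forebrain and their progenitors, while cells outside that lineage carried only the germline mutation. *Mov10* itself stood at 2.45, 2.13 and 2.09 CPM in the *Mov10* Deletion libraries and at 4.81, 4.75 and 4.80 CPM in the WT libraries. Totals lay between 71400300 and 86207971 estimated counts per library. *Neurod6* and *Prox1*, markers of hippocampal tissue, averaged at least 304.5 CPM in both groups, and the 7 hypothalamic markers other than *Nkx2-1* and *Pomc* were too low to test. Of 8 listed hippocampal markers, 3 passed the test given below (37.5%, beside 23.9% of all tested genes). *Zbtb20* was higher in *Mov10* Deletion, and *Emx2* and *Lhx2* were lower. Thalamic markers summed to between 157 and 174 CPM in every library. Markers of dividing progenitors summed to 836 to 926 CPM in *Mov10* Deletion and to 932 to 958 CPM in WT. The list was mixed, with 1 of its 8 markers passing as higher and 4 as lower (62.5%, beside 23.9% of all tested genes). Their log2 fold changes ran from -0.21 to 0.46. *Xist*, transcribed in females only, was between 0.184 and 888 CPM in the *Mov10* Deletion pools and between 182 and 643 CPM in the WT pools, so the pools differed in their mix of sexes. The *Mov10* Deletion library of replicate 1 stood apart in markers of the meninges and is treated with *Igf2*. The parent from which a transcript was inherited cannot be read from these values, and the parental copies named here are background knowledge.

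Sequence from the reference is shown for the genes on which the results turn. *Dlk1* and *Meg3* are neighbours read from opposite parental copies, and *Zim1* is the maternally read gene of the *Peg3* cluster. Windows from 250 bases before to 50 bases after an annotated start are given as in RefSeq on GRCm38.p6, and capitals mark TGCCGC, or GCGGCA on the other strand, the hexamer that the zinc finger protein ZFP57 binds when its CpG is methylated. The *Dlk1* window (chr12:109452573-109452872, plus strand) held no copy, and the most upstream *Meg3* window (chr12:109540746-109541045, plus strand) and the *Zim1* window (chr7:6696383-6696682, minus strand) held 1 copy each.
Dlk1: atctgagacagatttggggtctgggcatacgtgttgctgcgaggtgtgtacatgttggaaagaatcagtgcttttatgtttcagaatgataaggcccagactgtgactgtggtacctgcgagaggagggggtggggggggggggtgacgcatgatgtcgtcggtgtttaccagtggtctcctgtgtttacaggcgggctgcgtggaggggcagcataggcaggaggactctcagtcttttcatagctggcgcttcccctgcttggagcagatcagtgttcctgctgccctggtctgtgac
Meg3: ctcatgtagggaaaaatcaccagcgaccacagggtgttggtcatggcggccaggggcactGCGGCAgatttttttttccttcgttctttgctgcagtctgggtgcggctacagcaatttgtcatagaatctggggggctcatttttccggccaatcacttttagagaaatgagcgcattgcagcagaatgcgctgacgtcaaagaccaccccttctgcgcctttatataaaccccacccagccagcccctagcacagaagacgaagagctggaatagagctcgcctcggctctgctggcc
Zim1: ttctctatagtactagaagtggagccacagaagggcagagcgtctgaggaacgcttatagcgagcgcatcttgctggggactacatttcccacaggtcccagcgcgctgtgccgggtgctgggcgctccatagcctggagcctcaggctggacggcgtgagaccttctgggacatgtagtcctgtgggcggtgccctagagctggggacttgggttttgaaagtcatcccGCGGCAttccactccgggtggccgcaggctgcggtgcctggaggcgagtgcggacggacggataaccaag

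A window was at hand for 35 of the 43 genes, and 12 of the 35 (34.3%) held the hexamer in at least 1 window, as did 13.1% of all 27025 genes with a window. Some genes have several windows. Counted by window, 13 of 56 (23.2%) held it, beside 11.6% of all 32851 windows. The windows of the imprinted genes also held more CG dinucleotides, 17.2 on average against 12.4 over all windows. The 12 genes were *Nnat*, *Calcr*, *Mest*, *Copg2*, *Nap1l5*, *Zim1*, *Snrpn*, *Igf2*, *Plagl1*, *Grb10*, *Commd1* and *Meg3*. A match of letters is a description of the window and no evidence of binding.

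Several of the lncRNAs are hosts of microRNAs. Those that lie on the same strand within the RefSeq loci (GRCm38.p6) of the 3 hosts that passed the test below are given with the seed, bases 2 to 8, in capitals. *Meg3* and *Rian* lie in the cluster on chromosome 12, and *H19* lies on chromosome 7.
mmu-miR-1906: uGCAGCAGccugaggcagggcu
mmu-miR-770-5p: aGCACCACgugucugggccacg
mmu-miR-770-3p: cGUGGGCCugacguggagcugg
mmu-miR-341-5p: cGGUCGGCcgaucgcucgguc
mmu-miR-341-3p: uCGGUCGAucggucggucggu
mmu-miR-1188-5p: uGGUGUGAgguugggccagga
mmu-miR-1188-3p: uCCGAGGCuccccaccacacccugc
mmu-miR-370-5p: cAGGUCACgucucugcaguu
mmu-miR-370-3p: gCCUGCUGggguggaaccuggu
mmu-miR-675-3p: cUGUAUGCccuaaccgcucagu
mmu-miR-675-5p: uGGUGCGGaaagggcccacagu
The 11 mature microRNAs had 11 different seeds, so none of them form a seed family with each other. Poly(A)-selected libraries do not measure mature microRNAs, and no level is given for them. *Mirg* holds 19 further mature microRNAs on its own strand.

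At the level of the transcript per length, the imprinted genes covered a wide range in the newborn hippocampus. Mean TPM (transcripts per 1000000, corrected for transcript length) over the 6 libraries were at least 100 for 9 genes, from 10 to 100 for 21, from 1 to 10 for 7 and under 1 for 5. *Nnat*, a small membrane proteolipid of neurons, was highest at 1914 TPM, followed by *Gnas*, the stimulatory G protein alpha subunit, at 1286 TPM. The lncRNAs *Rian* and *Meg3* came next, at 979 and 729 TPM. *Snrpn*, a spliceosomal protein gene, was at 352 TPM, *Inpp5f*, a phosphoinositide phosphatase gene, at 291 TPM and *Ndn*, a MAGE family protein of postmitotic neurons, at 181 TPM. Each of *Nnat*, *Gnas*, *Rian*, *Meg3*, *Snrpn* and *Inpp5f* had all 6 libraries above all 6 of the next in that order. *Ndn* (156 to 201 TPM) and the next gene, *Blcap* (141 to 157 TPM), overlapped, as did *Blcap* and *Peg13* (125 to 144 TPM). At the low end, *Slc22a18* was at 0.572 TPM and *Kcnq1ot1* at 0.341 TPM, the latter spread over a transcript as long as its locus.

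**Figure D1:**
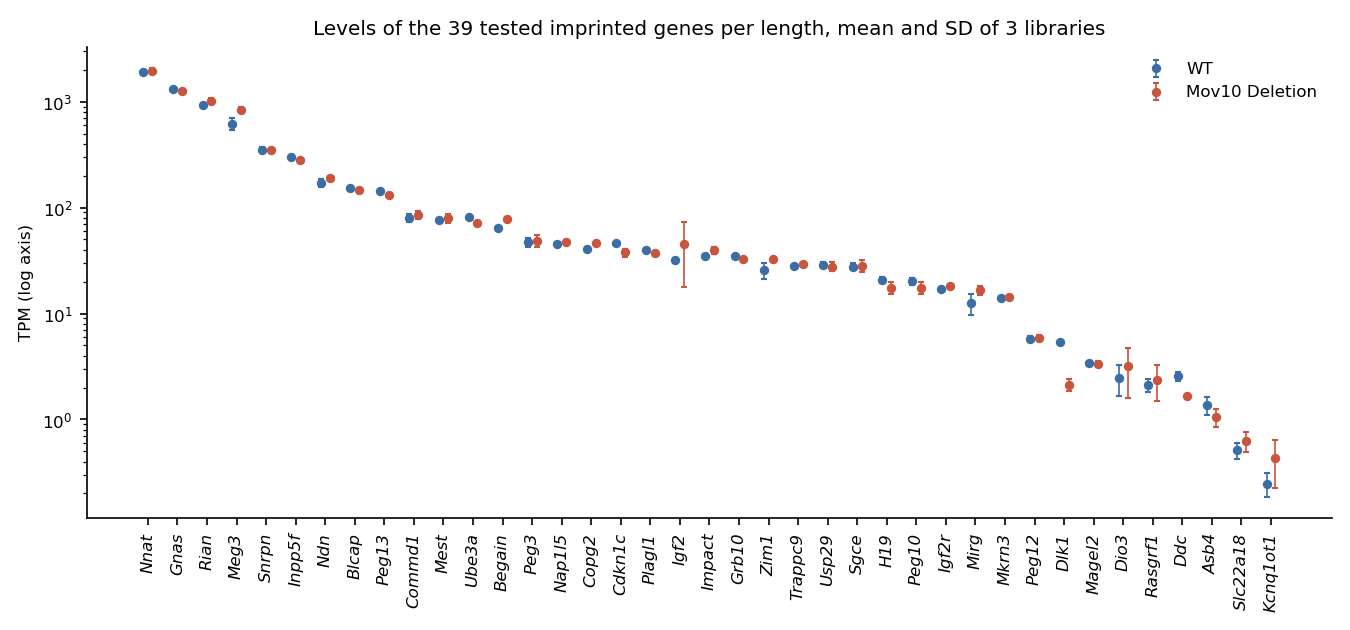
Mean TPM (log axis) of the 39 tested imprinted genes in WT (blue) and *Mov10* Deletion (red) libraries, ordered by the mean over all libraries, with the SD of 3 libraries as bars. *Nnat* leads at 1914 TPM, the groups lie apart at *Meg3* and *Dlk1*, and *Igf2* has a wide bar in the *Mov10* Deletion group.

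Of the 39 tested genes, 13 passed the test between the genotypes (limma-trend with 2 factors of unwanted variation, adjusted p under 0.05 over all genes). *Zim1*, *Meg3*, *Begain*, *Kcnq1ot1*, *Rian*, *Copg2* and *Impact* were higher in *Mov10* Deletion and *Dlk1*, *Cdkn1c*, *Ddc*, *Ube3a*, *H19* and *Peg13* were lower. These 13 were 33.3% of the imprinted genes tested, beside 23.9% of all tested genes. The imprinted genes and the lists described further on were chosen with earlier results of these data known. Their shares beside those of all genes are therefore descriptions only. By direction, 7 of 39 were higher, beside 12.2% of all genes, and 6 of 39 lower, beside 11.7% of all genes. The median log2 fold change of the 39 was 0.02, and that of all tested genes 0.01. In 16 of the 39 genes (41.0%) no *Mov10* Deletion library reached into the CPM range of WT, beside 41.6% of all tested genes. The 13 genes changed by a median of 1.20-fold, and 4 of them, *Dlk1*, *Kcnq1ot1*, *Ddc* and *Meg3*, were past 0.5 on the log2 scale.

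The 13 genes lay in 9 of the 18 clusters, and 2 clusters, those of *Dlk1*-*Dio3* and *Kcnq1*, held genes called in both directions. Among genes usually read from the maternal copy, 7 of the 14 tested passed (50%, 4 higher and 3 lower). Among those usually read from the paternal copy, 4 of 20 passed (20.0%, 2 higher and 2 lower). Of all tested genes, 23.9% passed. The difference between the maternal and paternal shares was not tested. The counts were 5 maternal and 1 paternal without factors, and 7 and 1 by DESeq2. Without the *Mov10* Deletion library of replicate 3 they were 7 maternal and 8 paternal. The share of all genes called also differed between fits and is not set beside these counts. The other 2 of the 13 genes were *Begain* and *Ddc*, whose parental copy depends on the isoform or tissue. Among the 21 other ways of fitting the data that were tried, *Dlk1*, *Meg3*, *Zim1* and *Cdkn1c* passed in all. *Rian* and *Begain* passed in 20, *Ddc* in 18, and *H19*, *Ube3a*, *Copg2* and *Kcnq1ot1* in 16 each. *Impact* and *Peg13*, with the adjusted p nearest to the threshold, passed in 9 and 10.

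**Figure D2:**
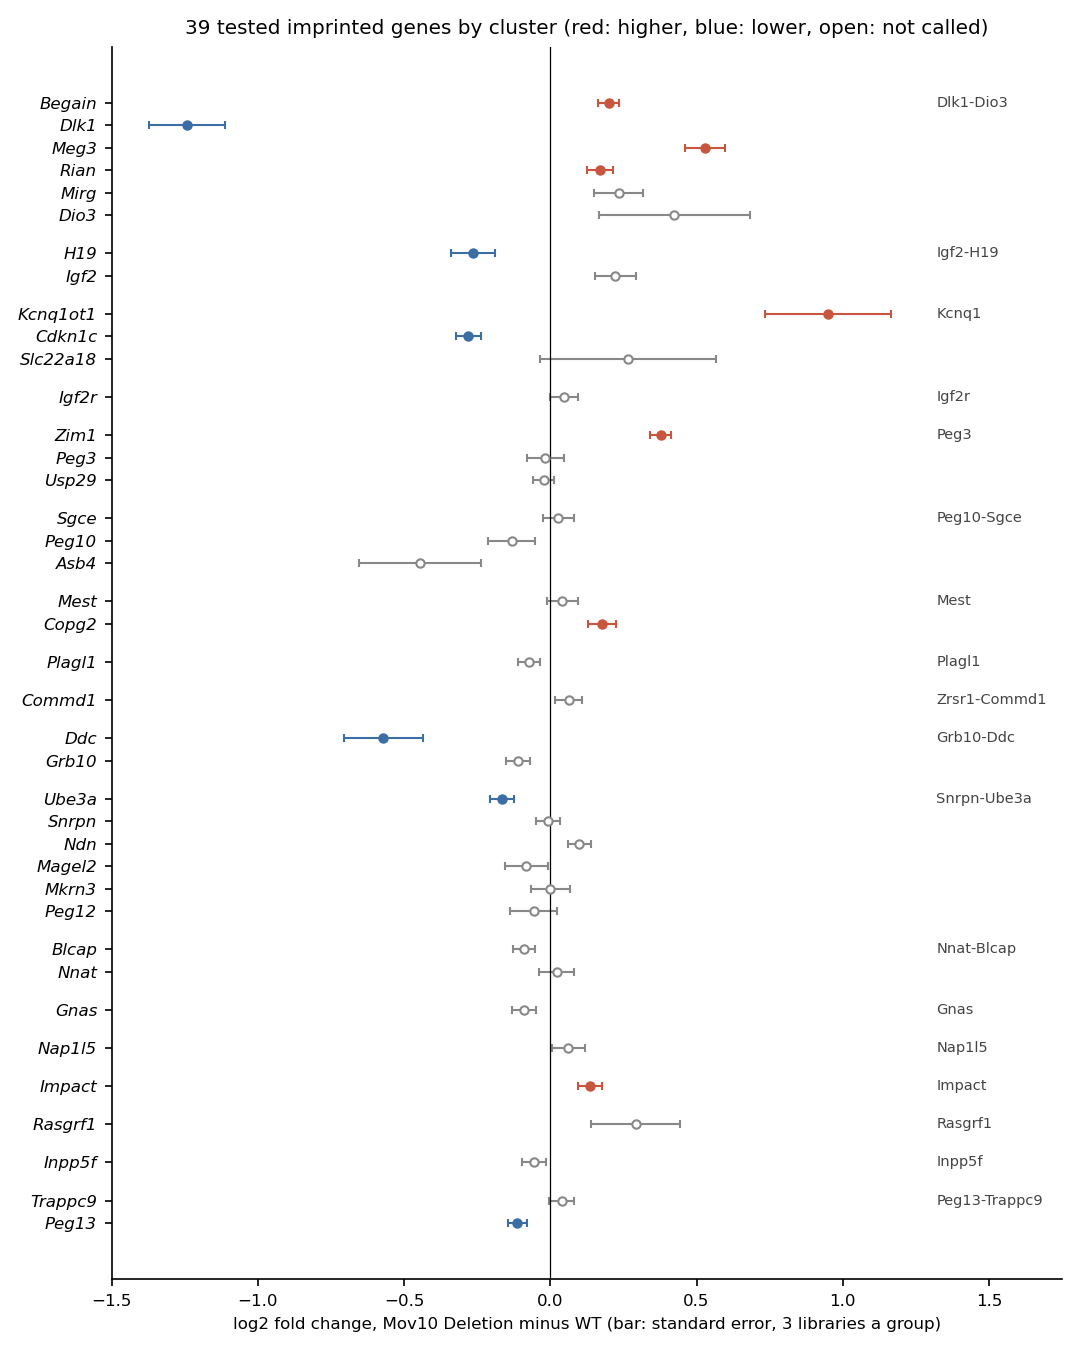
Fitted log2 fold changes (*Mov10* Deletion minus WT, bars the standard error, 3 libraries a group) of the 39 tested imprinted genes, grouped by cluster and ordered along the chromosome within it. Red genes passed as higher, blue as lower, and open grey symbols did not pass; *Dlk1* is at -1.24 and *Kcnq1ot1* at 0.95, and the other genes that passed lie between -0.57 and 0.53.

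The *Dlk1*-*Dio3* cluster on chromosome 12 held the largest decrease of the family beside one of its largest increases. *Dlk1* (GRCm39, chr12:109418749-109429262) is read from the paternal copy and encodes a transmembrane protein of the Notch ligand type that restrains differentiation. Its level was 3.87, 3.52 and 3.97 CPM in the WT libraries and 1.80, 1.58 and 1.39 CPM in the *Mov10* Deletion libraries. The *Mov10* Deletion libraries were all less than the lowest WT library, on 99 to 147 counts each, against 266.2 to 333.0 in WT. The fitted log2 fold change was -1.24 (SE 0.13, limma adjusted p = 0.00196), 0.42 of the WT level. In bulk tissue, fewer cells of a type and less RNA per cell cannot be told apart.

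*Meg3* (GRCm39, chr12:109506877-109538165), a nuclear lncRNA read from the maternal copy, starts 77.6 kilobases beyond the end of *Dlk1*. It stood at 933, 807 and 756 CPM in WT and at 1104, 1228 and 1393 CPM in *Mov10* Deletion. The groups did not overlap, and every *Mov10* Deletion library was higher than every WT library. The log2 fold change was 0.53 (SE 0.07, limma adjusted p = 0.00308). Within a library, *Meg3* counts were 191 to 241 times those of *Dlk1* in WT and 613 to 1005 times in *Mov10* Deletion. The rise was seen from each group of annotated *Meg3* starts, and the group with most counts, 4.40 kilobases inside the locus, went from 536 ± 60.3 to 854 ± 122 CPM (SD, n = 3).

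*Rian*, the next lncRNA of the same maternal transcription unit and a host of small nucleolar RNAs, changed less. Its values were 610, 594 and 577 CPM in WT and 645, 728 and 651 CPM in *Mov10* Deletion, without overlap. The log2 fold change was 0.17 (SE 0.04, limma adjusted p = 0.0319), and the call was lost without the WT library of replicate 2 (adjusted p = 0.149). The ratio of *Meg3* to *Rian* counts was 1.31 to 1.53 in WT and 1.69 to 2.14 in *Mov10* Deletion. *Mirg*, the microRNA host further along, did not pass, at 5.60 ± 1.16 CPM in WT and 7.14 ± 0.89 CPM in *Mov10* Deletion (SD, n = 3, log2 fold change 0.23, limma adjusted p = 0.0764).

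*Begain*, a postsynaptic scaffold-associated protein gene at the other end of the cluster, was at 80.5, 77.2 and 80.3 CPM in WT and at 86.4, 93.2 and 92.7 CPM in *Mov10* Deletion. All *Mov10* Deletion libraries were above all WT libraries (log2 fold change 0.20, SE 0.04, limma adjusted p = 0.00983, and 0.0576 without the WT library of replicate 2). *Dio3*, which inactivates thyroid hormone and is read from the paternal copy, was variable. It ran from 1.64 to 3.28 CPM in WT and from 1.91 to 4.70 CPM in *Mov10* Deletion and did not pass (limma adjusted p = 0.262). *Rtl1*, the paternal retrotransposon-derived gene opposite to the maternal transcripts, had at most 3 counts in a library and was not tested.

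**Figure D3:**
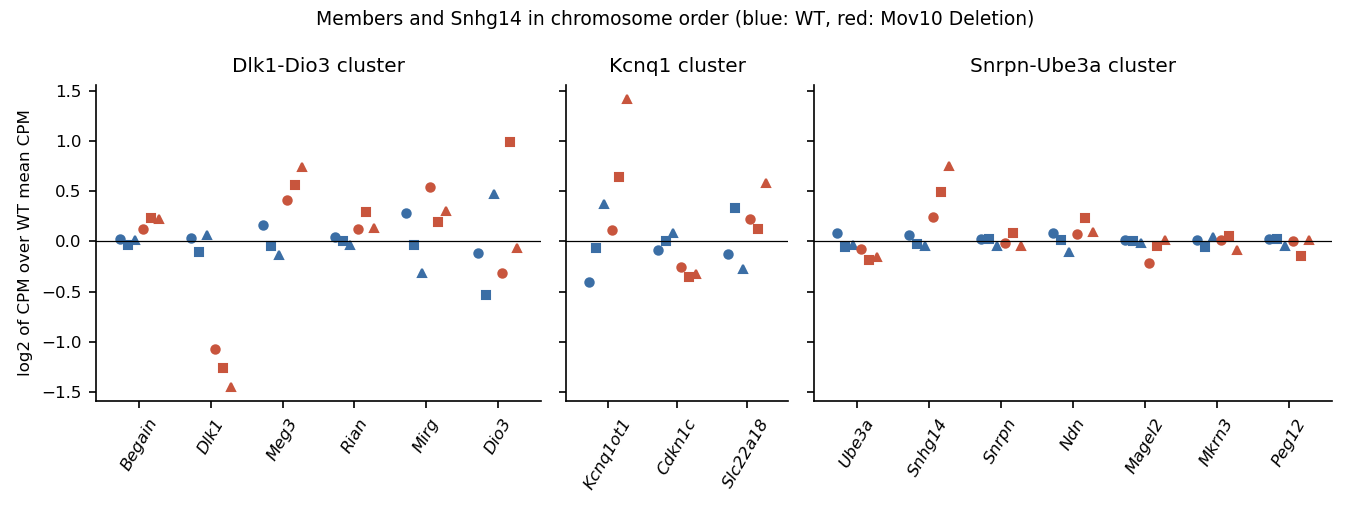
CPM of each library over the mean CPM of the 3 WT libraries (log2 axis), for the tested genes of 3 clusters and the lncRNA *Snhg14* in chromosome order, with circles, squares and triangles for replicates 1 to 3. *Dlk1* lies lower and *Meg3* higher in all *Mov10* Deletion libraries (red), and *Kcnq1ot1* and *Snhg14* are widely spread among them with replicate 3 highest.

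The *Kcnq1* cluster on chromosome 7 showed changes in both directions too. *Cdkn1c* (GRCm39, chr7:143012069-143014806) encodes the cyclin-dependent kinase inhibitor p57, which helps progenitors to leave the cell cycle, and is read from the maternal copy. It stood at 31.2, 33.2 and 35.2 CPM in WT and at 27.8, 25.9 and 26.5 CPM in *Mov10* Deletion. The *Mov10* Deletion libraries were all lower than the WT libraries and lay within 2 CPM of each other. The log2 fold change was -0.28 (SE 0.04, limma adjusted p = 0.00539). *Kcnq1ot1* (GRCm39, chr7:142731402-142850327), the paternal lncRNA that silences the genes of the cluster in cis, was at 7.33, 9.27 and 12.5 CPM in WT and at 10.5, 15.1 and 25.9 CPM in *Mov10* Deletion. The groups overlapped, because *Mov10* Deletion replicate 1 lay under the highest WT library. The log2 fold change was 0.95 (SE 0.22, limma adjusted p = 0.0195). It was not called in 5 of the 21 other fits, those by DESeq2 and by edgeR without factors among them (adjusted p = 0.169 and 0.071). The sources used here do not say whether counting used the strand. *Kcnq1*, which lies on the opposite strand, held 0.507 to 0.71 CPM in every library. *Slc22a18*, a transporter gene, did not pass at 16 to 27 counts a library (limma adjusted p = 0.554), and *Phlda2*, a placental growth inhibitor, had at most 1 count.

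In the *Peg3* cluster, *Zim1* (GRCm39, chr7:6674268-6699500), a zinc finger gene read from the maternal copy, had the smallest p of the family. Its values were 52.3, 47.6 and 42.5 CPM in WT and 61.5, 66.3 and 63.9 CPM in *Mov10* Deletion. The groups did not overlap (log2 fold change 0.38, SE 0.04, limma adjusted p = 0.00169). *Peg3*, a paternally read zinc finger gene whose start lies beyond that of *Zim1*, was at 203, 186 and 179 CPM in WT and at 177, 185 and 212 CPM in *Mov10* Deletion. It overlapped fully and did not pass (limma adjusted p = 0.865), and *Usp29*, read outward from the same start region, did not pass either (limma adjusted p = 0.675). *Zim1* counts were 0.237 to 0.257 of *Peg3* counts in WT and 0.302 to 0.359 in *Mov10* Deletion.

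The direction of *Igf2*, a fetal growth factor usually read from the paternal copy, depended on 1 library. Its values were 59.6, 60.5 and 59.5 CPM in WT and 137, 51.1 and 54.7 CPM in *Mov10* Deletion. The *Mov10* Deletion library of replicate 1 was 2.40 times the mean of the other 5, and the other 2 of its group lay under all WT libraries. *Igf2* did not pass with all libraries (log2 fold change 0.22, SE 0.07, limma adjusted p = 0.0566). Without *Mov10* Deletion replicate 1 it passed as lower (-0.18, limma adjusted p = 0.0041). Without *Mov10* Deletion replicate 2 or 3, or WT replicate 3, it passed as higher (0.42, 0.39 and 0.24, limma adjusted p = 0.000135, 0.000182 and 0.00241).

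That library was also the highest of the 6 for all 9 markers of meninges and fibroblasts, for 5 of 8 choroid plexus markers and for 7 of 10 markers of endothelial cells and pericytes. The 9 meningeal markers summed to 252 CPM in it, to 63.2 and 75.8 CPM in the other 2 *Mov10* Deletion libraries and to 93.7, 95.6 and 110 CPM in WT. The 8 choroid plexus markers summed to 57.6 CPM in it, to 6.53 and 10.5 CPM in the other 2 and to 22.1, 20.6 and 12.9 CPM in WT. Both sums thus lay above WT in *Mov10* Deletion replicate 1 and below WT in replicates 2 and 3, as *Igf2* did, and without replicate 1 the *Mov10* Deletion means were 0.697 and 0.459 of the WT means. *Col1a2*, a fibroblast collagen, was at 65.2 CPM against 13.7 to 26.5 CPM, and *Slc6a13*, a transporter of meningeal cells, at 10.6 CPM against 1.78 to 2.81 CPM. The part of these cells in the *Igf2* values was not tested. Of the other 41 imprinted genes, *Mirg*, *Sgce* and *Commd1* were highest in this library.

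**Figure D4:**
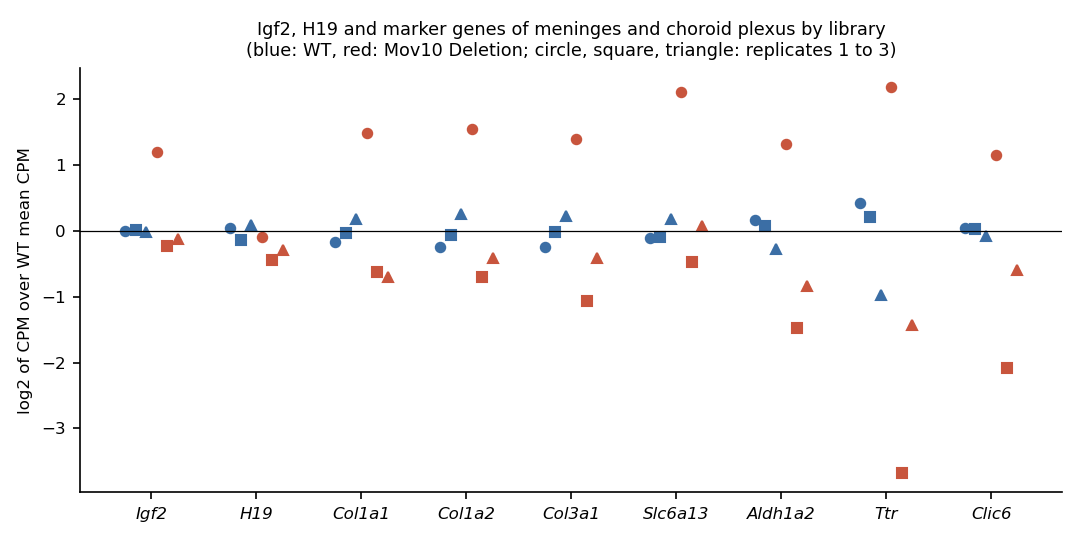
CPM over the mean CPM of the 3 WT libraries (log2 axis) for *Igf2*, *H19*, 5 of the 9 listed markers of meninges and fibroblasts (*Col1a1*, *Col1a2*, *Col3a1*, *Slc6a13*, *Aldh1a2*) and 2 of the 8 of the choroid plexus (*Ttr*, *Clic6*). *Mov10* Deletion replicate 1 (red circle) is highest for *Igf2* and for all 7 markers shown, and for *H19* it lies within the range of the WT libraries.

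*H19*, the maternally read lncRNA that shares its control region with *Igf2*, stood at 26.8, 23.6 and 27.5 CPM in WT and at 24.4, 19.2 and 21.3 CPM in *Mov10* Deletion. Replicates 2 and 3 of *Mov10* Deletion lay under all WT libraries, as for *Igf2*, while replicate 1 lay within the WT range. It passed as lower (log2 fold change -0.26, SE 0.08, limma adjusted p = 0.0418). The call held in 16 of the 21 other fits and was lost without *Mov10* Deletion replicate 2, among others (adjusted p = 0.0673). *Igf2r*, the receptor that clears IGF2, is usually read from the maternal copy. It was at 80.5, 79.7 and 78.0 CPM in WT and at 83.2, 77.7 and 86.9 CPM in *Mov10* Deletion, with overlap (limma adjusted p = 0.522).

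Of the 20 genes listed as partners of these growth and hormone pathways, all were tested, and 2 were higher and 6 lower, beside the same 12.2% and 11.7% of all genes. The insulin-like growth factor receptor *Igf1r* (log2 fold change -0.21), the insulin receptor *Insr* (-0.13) and their adaptors *Irs1* (-0.27) and *Irs2* (-0.23) were all lower, with limma adjusted p of 0.0294, 0.0335, 0.00496 and 0.0068. *Irs1* was at 142, 135 and 136 CPM in WT and at 115, 112 and 119 CPM in *Mov10* Deletion, so the groups did not overlap. The *Igf2* mRNA-binding proteins *Igf2bp2* (-0.27) and *Igf2bp3* (-0.25) were lower too, and the binding protein *Igfbp5* (0.17) and the dopamine receptor *Drd1* (0.42) higher. *Igf1*, the Notch receptors *Notch1*, *Notch2* and *Notch3* and the thyroid hormone receptors *Thra* and *Thrb* stayed on the other side of the threshold, as did 6 more.

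In the *Snrpn*-*Ube3a* cluster on chromosome 7, 1 of 6 genes passed. *Ube3a*, a ubiquitin ligase that neurons read from the maternal copy, was at 209, 190 and 191 CPM in WT and at 186, 173 and 176 CPM in *Mov10* Deletion. The highest *Mov10* Deletion library was close to the lowest WT library, without overlap (log2 fold change -0.17, SE 0.04, limma adjusted p = 0.0265, and 0.117 without WT replicate 1). *Snhg14*, a long paternal transcript of the list of other imprinted genes whose end runs antisense through *Ube3a*, was at 99.96, 93.8 and 92.7 CPM in WT and at 113, 134 and 160 CPM in *Mov10* Deletion. It passed as higher (log2 fold change 0.49, SE 0.08, limma adjusted p = 0.00784) with all *Mov10* Deletion libraries above WT. The 2 annotations overlap at their ends on opposite strands, and whether reads there were assigned by strand is not stated in the sources used here.

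The paternal genes of that cluster differed by less. *Snrpn* stood at 267, 265 and 253 CPM in WT and at 258, 278 and 254 CPM in *Mov10* Deletion, with overlap (log2 fold change -0.01, limma adjusted p = 0.922). *Ndn* had a log2 fold change of 0.10 (limma adjusted p = 0.11), and *Magel2*, *Mkrn3* and *Peg12*, the other single-exon paternal genes, lay between -0.08 and 0.00 with adjusted p of at least 0.444.

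*Copg2*, a coat protein gene of transport vesicles, overlaps the end of *Mest* on the opposite strand. *Copg2* was at 48.3, 50.4 and 51.6 CPM in WT and at 56.1, 58.4 and 53.5 CPM in *Mov10* Deletion, without overlap (log2 fold change 0.18, SE 0.05, limma adjusted p = 0.0329). It lost the call without WT replicate 1 or 2 (adjusted p = 0.104 and 0.0835). *Mest*, a paternally read hydrolase-like gene, was at 69.0, 71.3 and 67.3 CPM in WT and at 65.4, 72.0 and 77.0 CPM in *Mov10* Deletion and did not pass (limma adjusted p = 0.586).

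*Peg13*, a paternal lncRNA inside an intron of *Trappc9*, was at 293, 293 and 303 CPM in WT and at 256, 286 and 272 CPM in *Mov10* Deletion. All *Mov10* Deletion libraries were lower, replicate 2 by little (log2 fold change -0.11, SE 0.03, limma adjusted p = 0.0478). It lost the call without *Mov10* Deletion replicate 1 or WT replicate 2 (adjusted p = 0.0657 and 0.226). *Trappc9*, a trafficking complex subunit on the same strand, overlapped at 56.8 ± 1.61 CPM in WT and 58.4 ± 1.84 CPM in *Mov10* Deletion (SD, n = 3, limma adjusted p = 0.538), and pre-mRNA of *Trappc9* cannot be told apart from *Peg13* where they coincide.

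*Ddc*, the aromatic amino acid decarboxylase of monoamine neurons, was low, at 1.71, 2.01 and 2.08 CPM in WT and 1.31, 1.19 and 1.23 CPM in *Mov10* Deletion. The groups did not overlap on 88 to 160 counts a library (log2 fold change -0.57, SE 0.14, limma adjusted p = 0.022, and 0.0782 without WT replicate 2). Its neighbour *Grb10*, an adaptor that damps insulin and IGF receptor signals, was at 76.3, 79.0 and 77.9 CPM in WT and at 72.4, 69.6 and 73.5 CPM in *Mov10* Deletion. It was lower in all *Mov10* Deletion libraries but did not pass (log2 fold change -0.11, SE 0.04, limma adjusted p = 0.0784). The start group of the transcript *Grb10*-201 held 90.8% of the gene's TPM, and those 10.6 and 12.0 kilobases downstream held 2.35% and 5.41%. The main start group stood at 75.1 ± 1.82 CPM in WT and 69.1 ± 1.83 CPM in *Mov10* Deletion (SD, n = 3).

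*Impact*, a paternally read inhibitor of the kinase GCN2, was at 35.4, 35.1 and 35.8 CPM in WT and at 38.0, 38.8 and 39.5 CPM in *Mov10* Deletion. The groups did not overlap and differed by little (log2 fold change 0.14, SE 0.04, limma adjusted p = 0.0497). It lost the call without *Mov10* Deletion replicate 3, WT replicate 1 or WT replicate 2 (adjusted p = 0.0661, 0.112 and 0.191).

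**Figure D5:**
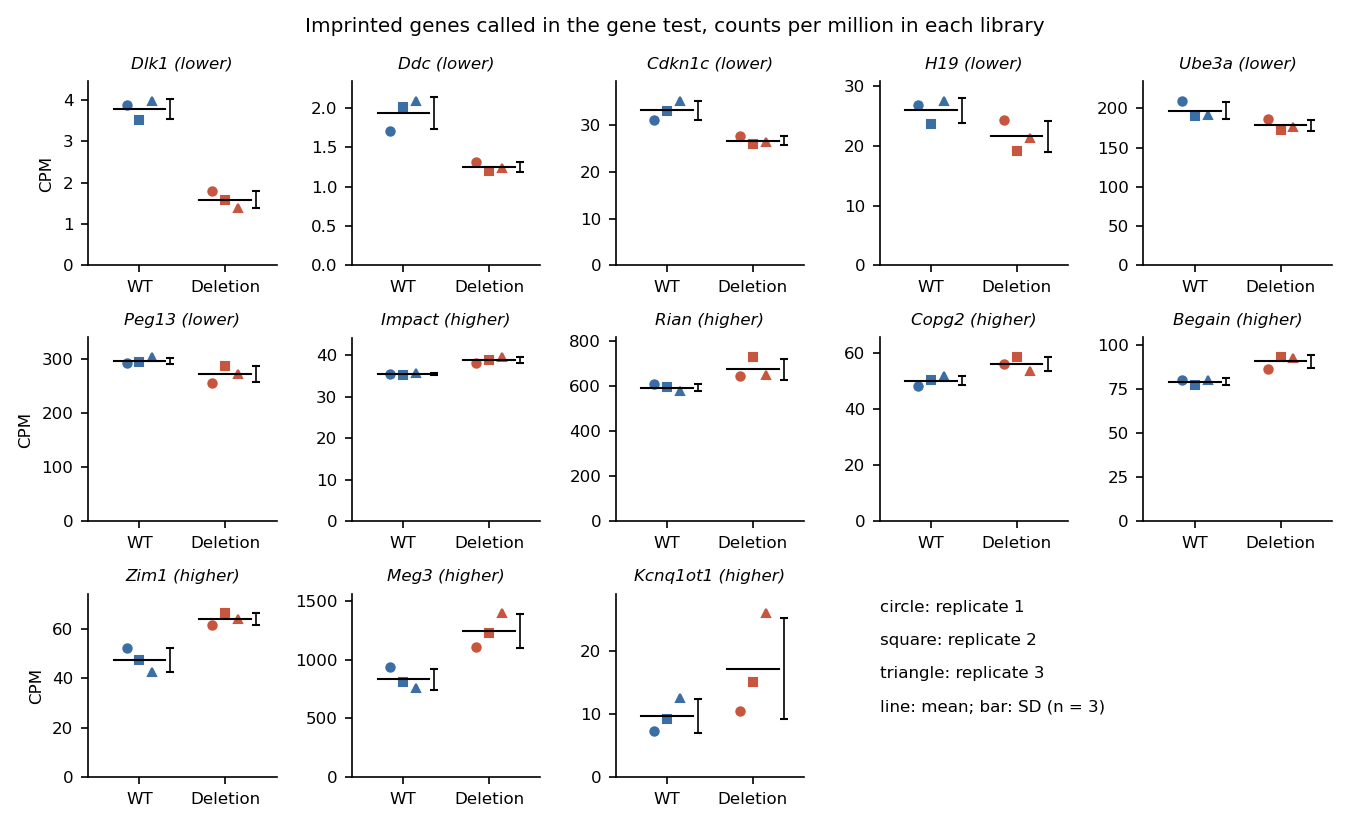
CPM in each library of the 13 imprinted genes that passed, ordered from the lowest to the highest log2 fold change, with WT in blue and *Mov10* Deletion in red, the group mean as a line and the SD (n = 3) as a bar. The groups are apart for 11 of the 13, which were picked by the test on these libraries, and overlap for *H19* and *Kcnq1ot1*. Over all 39 tested imprinted genes the groups are apart in 41.0%, beside 41.6% of all tested genes.

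The highest genes of the other clusters did not pass. *Nnat* was at 951, 1004 and 984 CPM in WT and at 969, 1072 and 929 CPM in *Mov10* Deletion, with overlap (limma adjusted p = 0.816), and *Blcap*, in which it lies, was lower in all *Mov10* Deletion libraries (110 ± 1.47 against 103 ± 4.62 CPM, SD, n = 3, limma adjusted p = 0.114). *Gnas* was at 947, 954 and 954 CPM in WT and at 879, 930 and 868 CPM in *Mov10* Deletion, all lower than WT (log2 fold change -0.09, SE 0.04, limma adjusted p = 0.145). *Gnas* transcripts from the start group of G protein alpha itself held 80.6% of its TPM, at 812 ± 8.73 CPM in WT and 762 ± 32.6 CPM in *Mov10* Deletion (SD, n = 3). The start group 2.44 kilobases before it, where the paternal exon 1A transcripts begin, held 2.66% and stood at 52.3 ± 1.24 against 50.4 ± 3.81 CPM, with overlap. The most upstream start group, 45.8 kilobases before, held 0.12% of the TPM.

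*Inpp5f* was at 371, 383 and 386 CPM in WT and at 367, 374 and 349 CPM in *Mov10* Deletion and did not pass (limma adjusted p = 0.345). Most of its level, 89.9% of its TPM, came from short transcripts that start 76.3 kilobases inside the gene, the start of the paternally read brain isoforms. They stood at 320 ± 4.23 CPM in WT and 307 ± 12.3 CPM in *Mov10* Deletion, and the full-length group at 56.2 ± 4.37 and 53.1 ± 0.61 CPM (SD, n = 3). Both overlapped between the groups.

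*Peg10*, a retrotransposon-derived gene, and *Sgce*, the sarcoglycan gene read outward from the same start region, did not pass. *Sgce* was at 18.5, 19.8 and 18.2 CPM in WT and 22.1, 17.9 and 18.6 CPM in *Mov10* Deletion, and *Peg10* at 53.1, 56.8 and 64.5 CPM in WT and 46.5, 59.7 and 46.7 CPM in *Mov10* Deletion. Both overlapped (limma adjusted p = 0.748 and 0.255). *Asb4*, a ubiquitin ligase adaptor, was lower in all *Mov10* Deletion libraries, on 62 to 142 counts (limma adjusted p = 0.157), and *Calcr*, the calcitonin receptor, had 1 count in each WT library and 3 to 5 in each *Mov10* Deletion library and was not tested.

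*Plagl1*, a zinc finger gene of growth control, was at 57.8, 58.9 and 61.8 CPM in WT and at 52.1, 58.9 and 56.0 CPM in *Mov10* Deletion, with overlap (limma adjusted p = 0.206). *Commd1*, a copper homeostasis gene that contains the *Zrsr1* locus, was at 24.2, 24.5 and 23.3 CPM in WT and at 26.2, 24.6 and 25.2 CPM in *Mov10* Deletion. These were apart by under 0.1 CPM and did not pass (limma adjusted p = 0.357). *Nap1l5*, a nucleosome assembly gene, was at 31.6, 31.4 and 31.3 CPM in WT and at 32.3, 35.2 and 31.2 CPM in *Mov10* Deletion (limma adjusted p = 0.443). *Rasgrf1*, a neuronal exchange factor of Ras, was at 4.13, 4.26 and 5.52 CPM in WT and at 3.78, 7.90 and 4.74 CPM in *Mov10* Deletion (limma adjusted p = 0.196). *Mov10* Deletion replicate 2 was the highest library for it, and both genes overlapped between the groups.

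The family holds 6 lncRNAs, some of the most abundant transcripts in these libraries among them. All were tested, 3 were higher (*Meg3*, *Rian* and *Kcnq1ot1*), 2 lower (*H19* and *Peg13*) and *Mirg* did not pass. Among all 1462 lncRNAs tested, 10.3% were higher and 2.94% lower. Some other abundant lncRNAs were chosen after their values were seen, so their direction adds no evidence on the family. *Miat* was at 407 to 469 CPM in WT and 531 to 763 CPM in *Mov10* Deletion, and *Snhg11* at 148 to 200 and 268 to 303 CPM (log2 fold changes 0.51 and 0.64, limma adjusted p = 0.0167 and 0.00131). *Malat1*, a nuclear lncRNA, had 0.80 with overlapping groups (limma adjusted p = 0.0103), and *Neat1* did not pass (limma adjusted p = 0.104). In *Malat1*, *Miat*, *Meg3* and *Kcnq1ot1* replicate 3 was the highest and replicate 1 the lowest *Mov10* Deletion library. The highest *Mov10* Deletion library was replicate 2 for *Rian* and *Peg13* and replicate 1 for *Mirg* and *H19*.

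Transcript usage, the share of each transcript in its gene, was tested in 26 of the genes. It passed for *Inpp5f*, *Rian* and *Copg2* (limma diffSplice adjusted p = 0.0322, 0.0362 and 0.0477), 3 of 26 beside 5.44% of the 10336 genes tested. All 3 rested on minor transcripts. The transcript *Inpp5f-206* was at 2.52, 2.07 and 1.79 CPM in WT and 2.40, 1.16 and 1.09 CPM in *Mov10* Deletion, and *Inpp5f-204* at 1.52, 1.37 and 1.49 against 1.51, 1.79 and 1.90 CPM. The transcript *Rian-224* was under 0.7 CPM in every library, and *Copg2-206* was listed at 0 in 3 of 6 libraries. None of the 3 passed without factors of unwanted variation, where *Nnat* did.

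A further 50 imprinted genes, listed as background, gave 48 with a gene of that name and 40 tested. Of these 11 were higher and 4 lower, 37.5% in all beside 23.9% of all tested genes. Among the higher were *Snhg14*, *Dhcr7*, a cholesterol synthesis enzyme (log2 fold change 0.33, limma adjusted p = 0.00284), *Htr2a*, a serotonin receptor (0.56, limma adjusted p = 0.01), *Cobl*, an actin nucleator beside *Grb10* and *Ddc* (0.80, limma adjusted p = 0.0155), and *Ago2*, the Argonaute protein beside *Peg13* and *Trappc9* (0.14, limma adjusted p = 0.0474). *Ago2* was at 131, 124 and 127 CPM in WT and 138, 138 and 145 CPM in *Mov10* Deletion, apart by little. The 4 lower genes were *Bcl2l1*, *Gab1*, *Smoc1* and *Zfp354c*, between -0.20 and -0.28. *Airn*, the lncRNA antisense to *Igf2r*, was at 1.69 to 2.12 CPM in WT and 2.11 to 2.35 CPM in *Mov10* Deletion, and did not pass.

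Of 30 genes listed as imprint regulators, 26 were tested, 5 were higher and 5 lower. These were 38.5% of the 26, beside 23.9% of all tested genes, of which 12.2% were higher and 11.7% lower. *Zfp57*, which binds methylated control regions, rose from 144, 132 and 121 CPM in WT to 153, 162 and 175 CPM in *Mov10* Deletion (log2 fold change 0.27, SE 0.05, limma adjusted p = 0.00945). The groups did not overlap. Its corepressor *Trim28* fell from 340, 343 and 359 CPM to 277, 293 and 286 CPM (-0.27, SE 0.03, limma adjusted p = 0.00284), and the histone methyltransferase *Setdb1*, which TRIM28 recruits, fell by 0.12 on the log2 scale (limma adjusted p = 0.0418). *Uhrf1* (0.34) and *Hells* (0.44), cofactors of maintenance methylation, and the methylcytosine oxidase *Tet2* (0.37) were higher. The methyltransferases *Dnmt1*, *Dnmt3a* and *Dnmt3b* did not pass. Of the cohesin subunits, *Rad21* (-0.29) and *Smc3* (-0.13) were lower and *Smc1a* (0.14) higher, and the insulator protein *Ctcf* did not pass. *Eed*, a Polycomb subunit, was lower (-0.40, limma adjusted p = 0.00402), and stood at 9.76 CPM in *Mov10* Deletion replicate 1 against at least 15.7 CPM in the other libraries.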

How the data were processed

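RNA of 3 *Mov10* Deletion and 3 WT hippocampal pools was sequenced; the titles of the samples gave each group and replicate number. The authors quantified transcripts with Salmon 1.4.0 by selective alignment, with the GRCm39 genome as decoy. The deposited files give an estimated count, a TPM and an effective length for each transcript. The authors' estimated counts are raw and can be fractional, and in the deposited TPM both length and depth were corrected for. No source used here names the annotation of the index.

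Transcripts were matched without version to GENCODE M39 (137570 of 139225; the others held at most 0.600% of the counts), and estimated counts were summed per gene and rounded. Tested genes reached 0.25 CPM in 3 libraries or more and held 99.9% of the counts. The test followed the study's methods: limma-trend on TMM-scaled log2 CPM, with 2 factors of unwanted variation beside genotype. The study does not name the RUVSeq function or the prior count, and RUVs over all tested genes with genotypes as replicate sets and a prior count of 2 were used (R 4.3.3, limma 3.58.1, edgeR 4.0.16). Benjamini-Hochberg adjustment ran across every tested gene, with a threshold of 0.05. CPM in the text are TMM-normalized and not corrected for the factors, while fold changes come from the fit, which left 2 residual degrees of freedom and borrowed 5.73 from the other genes. Since the factors come from these same libraries, p-values measure only the spread between pools that the factors left. Transcript usage was tested with diffSplice on the same design. Annotated starts within 1 kilobase of each other were joined into start groups. Promoter windows and microRNAs are from RefSeq on GRCm38.p6, and all other coordinates are GRCm39.

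The imprinted genes and the lists beside them were chosen with earlier results of these data known. Values in every library are given for each gene that passed and for the highest gene by TPM in each cluster, and the others are given by range or count. Alternatives covered the factors, a sex score, a replicate block, edgeR's quasi-likelihood test, DESeq2 1.42.0, normalization, filter, prior count, rounding, length-scaled TPM and leaving out each library. Same-numbered libraries of the 2 groups correlated at 0.012, -0.071 and 0.043 in their deviations from the group means, so the numbers were not taken as pairs.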

Additional observations from a re-analysis of the deposited data

How the results depend on the processing

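In the main fit 13 of 39 imprinted genes were called (33.3%, beside 23.9% of all tested genes). The number moved by over 1.5 times without factors (8), with a sex score in their place (8), with edgeR's quasi-likelihood test without factors (8) and with no filter on low counts (7). Leaving out one library gave between 7 (WT replicate 2) and 20 (*Mov10* Deletion replicate 2) genes. The number of all genes called, 4000, fell to 1282 with the sex score, and leaving out one library gave between 2193 and 5812. The counts of imprinted genes alone therefore do not show whether a change was particular to them. Transcript usage was called in 1 imprinted gene without factors, in 1 with no filter and in 1 with at least 1 CPM, and in 1 to 4 when leaving out one library. With the replicate number as a replicate block in place of the factors, 11 imprinted genes and 3437 genes were called. Over the 21 alternatives, the 13 called genes never changed direction, and 225 of their 273 results stayed past the threshold. *Igf2* reversed without *Mov10* Deletion replicate 1, to -0.18, and leaving out the other libraries gave up to 0.42. The causes of these changes were not tested. At 71400300 to 86207971 counts a library, *Phlda2*, *Calcr* and *Rtl1* had at most 5 counts in any library, and *Slc22a18* had 16 to 27 counts.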
